A study of Mus musculus with 40 samples.

Results

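The cells described here are the 8 inner cell mass (ICM) cells of the early mouse blastocyst in which the RNA of Nanog, a transcription factor of the pluripotent epiblast, stood above that of Gata6, a transcription factor of the primitive endoderm. They were compared with the other 6 ICM cells, and all 14 belonged to a series of 40 single cells. The cells were chosen by their Nanog and Gata6 values, so these values describe the choice and carry no test. The 8 cells are called the Nanog side below and the other 6 the Gata6 side. All 40 cells came from female blastocysts (mother C57BL/6J, father CAST/EiJ), with no transgene, deletion or treatment named in the labels. The 14 ICM cells were collected at embryonic day E3.5. The study isolated the ICM by immunosurgery, which destroys the outer trophectoderm (TE). For the 3 of these cells taken from an earlier study, the sources used here do not state how the ICM was isolated. The class of each cell (ICM or TE at E3.5, epiblast or primitive endoderm at E4.0) and its embryo were those the study had assigned. At E4.0 there were 10 epiblast (Epi) and 13 primitive endoderm (PrE) cells, none of which had a part in the choice, and 3 TE cells of E3.5 were also present. Each library held the RNA of 1 cell, so the embryo was taken as the replicate.

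The ICM gives rise to the Epi, from which the fetus forms, and to the PrE, which lines the yolk sac. Before these lineages part, ICM cells carry both Nanog and Gata6 protein. Cells on the way to the Epi then keep Nanog and secrete the growth factor FGF4, while cells on the way to the PrE keep Gata6 and receive FGF4 through the receptors FGFR1 and FGFR2, which signal through ERK. The precursors are at first intermingled in the ICM and sort later. The X chromosome inherited from the father is silent in female embryos when the blastocyst forms, under the control of the non-coding RNA Xist, and it is switched on again in the Epi lineage.

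Levels per gene are given in RPRT, in which reads are divided by the length of transcript that the reverse transcription covers and by the depth of the library. Nanog was at 125 RPRT in the lowest, 165 in the median and 411 in the highest cell of the Nanog side, and at 11.4, 28.9 and 140 RPRT on the Gata6 side. Gata6 was at 1.08, 12.1 and 128 RPRT on the Nanog side and at 58.5, 126 and 201 RPRT on the Gata6 side. The values of both genes overlapped between the sides, because the line runs through cells that held both RNAs. Just inside the line lay a cell of embryo 10 with Nanog at 163 and Gata6 at 128 RPRT, a ratio of 1.27, and a cell of embryo 9 with a ratio of 1.56. Just outside lay another cell of embryo 9 with a ratio of 0.731, and another cell of embryo 10 with Nanog at 140 and Gata6 at 201 RPRT, a ratio of 0.694. These 4 cells were within 2-fold of the line and are called line cells below. At the far end of the Nanog side, the cell of embryo 11 had a ratio of 379. All 14 cells kept their side when counts scaled to library size alone replaced RPRT.

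**Figure D1:**
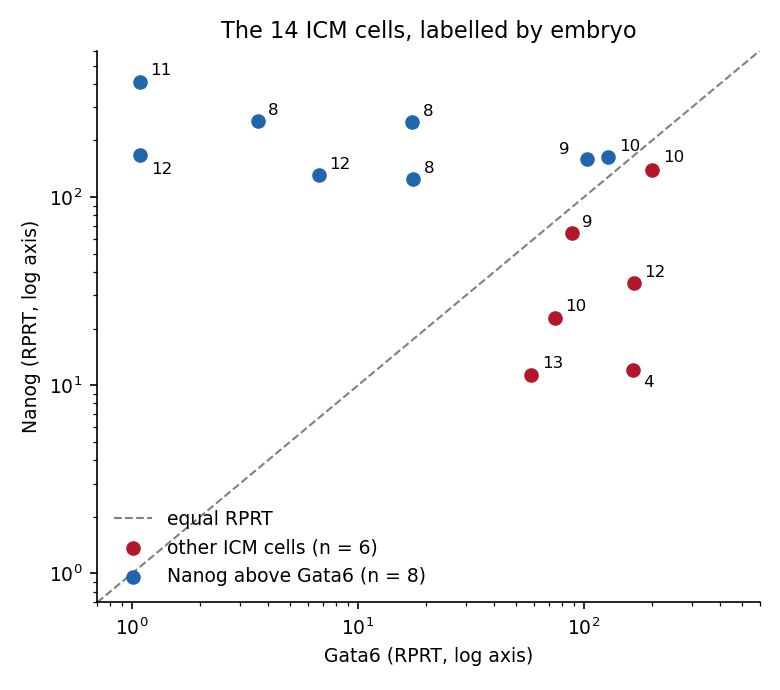
Nanog against Gata6 in the 14 ICM cells, both in RPRT on log axes, each point a cell with the number of its embryo, and the dashed line at equal RPRT. The 8 blue cells lie above the line by the choice, and 4 cells of embryos 9 and 10 lie within 2-fold of it.

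The 14 cells came from 7 embryos. The Nanog side drew 3 cells from embryo 8, 2 from embryo 12 and 1 each from embryos 9, 10 and 11. The Gata6 side drew 2 cells from embryo 10 and 1 each from embryos 4, 9, 12 and 13. Embryos 9, 10 and 12 thus gave cells to both sides, and in each of them the sides could be compared within an embryo. Total counts ran from 8608679 to 12833051 on the Nanog side and from 2671531 to 10647574 on the Gata6 side. The lowest total belonged to the line cell of embryo 10 on the Gata6 side. Genes with an RPRT above 1 numbered 7086 to 9181 per cell on the Nanog side and 7725 to 9183 on the Gata6 side. Averaged per embryo, they numbered 8075 ± 823 on the Nanog side and 8373 ± 537 on the Gata6 side (SD, n = 5 each; exact permutation test, two-sided p = 0.516). Within embryos 9 and 10 the Nanog side had 90 and 701 more genes, and within embryo 12 the difference was -252. Of the ICM cells, 3 belonged to an earlier study by this group (1 on the Nanog side from embryo 8 and 2 on the Gata6 side from embryos 4 and 12).

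Of the markers given for these cells, Fgf4, Fgfr2 and Sox17 had no part in the choice. Fgf4, the growth factor of the Epi precursors, was at 0.373 RPRT in the lowest, 84.1 in the median and 193 in the highest cell of the Nanog side, and at 0, 0.947 and 77.8 RPRT on the Gata6 side. On the Nanog side 7 of 8 cells had 38.1 RPRT or more, and the exception was the line cell of embryo 9. On the Gata6 side 5 of 6 cells had 1.40 RPRT or less, and the exception was the shallow line cell of embryo 10. Cells without Fgf4 were therefore not limited to the Gata6 side, nor cells with it to the Nanog side.

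Fgfr2 encodes a receptor of FGF4. It was at 163, 27.6, 29.8, 17.6, 1.86 and 6.57 RPRT on the Gata6 side, in order of rising Nanog to Gata6 ratio. On the Nanog side its lowest, median and highest values were 0, 0.777 and 9.37 RPRT. The 4 cells of highest Fgfr2 were all on the Gata6 side away from the line, while the line cells of both sides had 6.57 RPRT or less. Sox17, a transcription factor of the PrE, was at 83.6, 30.9, 75.8, 15.2, 0 and 58.9 RPRT on the Gata6 side in the same order. On the Nanog side it reached 14.8 RPRT in the line cell of embryo 10 and 1.05 RPRT or less in the other 7 cells. Fgf4 and Fgfr2 both lie on chromosome 7 (GRCm38, chr7:144847367-144865243 and chr7:130162451-133123350), Sox17 lies at chr1:4490931-4497354, and these spans come from the GENCODE M21 annotation.

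Markers of the Epi and PrE other than these were read in the same cells. Sox2, a core factor of pluripotency, was at 52.1, 104 and 232 RPRT in the lowest, median and highest cell of the Nanog side and at 0.967, 13.4 and 96.8 RPRT on the Gata6 side. Gata4, a PrE factor, was at 0, 0.899 and 24.7 RPRT on the Nanog side and at 2.01, 70.5 and 118 RPRT on the Gata6 side. The overlap came for Sox2 from cells of embryos 9 and 10 on the Gata6 side. For Gata4 it came from the line cells of both sides and a cell of embryo 8 on the Nanog side. Pdgfra, a receptor that marks PrE precursors, was at 0.0804 to 18.7 RPRT on the Nanog side and at 15.1 to 34.4 RPRT on the Gata6 side. Sox7, which appears late in the PrE, was above 1 RPRT in 0 cells of the Nanog side and in 2 of the Gata6 side, against a median of 56.0 RPRT in E4.0 PrE cells. Hnf4a, listed as a PrE marker, ran the other way, with a median of 13.2 RPRT on the Nanog side and 3.32 RPRT on the Gata6 side. Bmp4, a growth factor found in the Epi at E4.0, was at 50.5 to 128 RPRT on the Nanog side and from 0.571 to 229 RPRT on the Gata6 side, and its highest cell was the line cell of embryo 9 on the Gata6 side. Hnf4a and Bmp4 thus did not follow Nanog and Gata6 across the line as the other markers did in most cells.

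**Figure D2:**
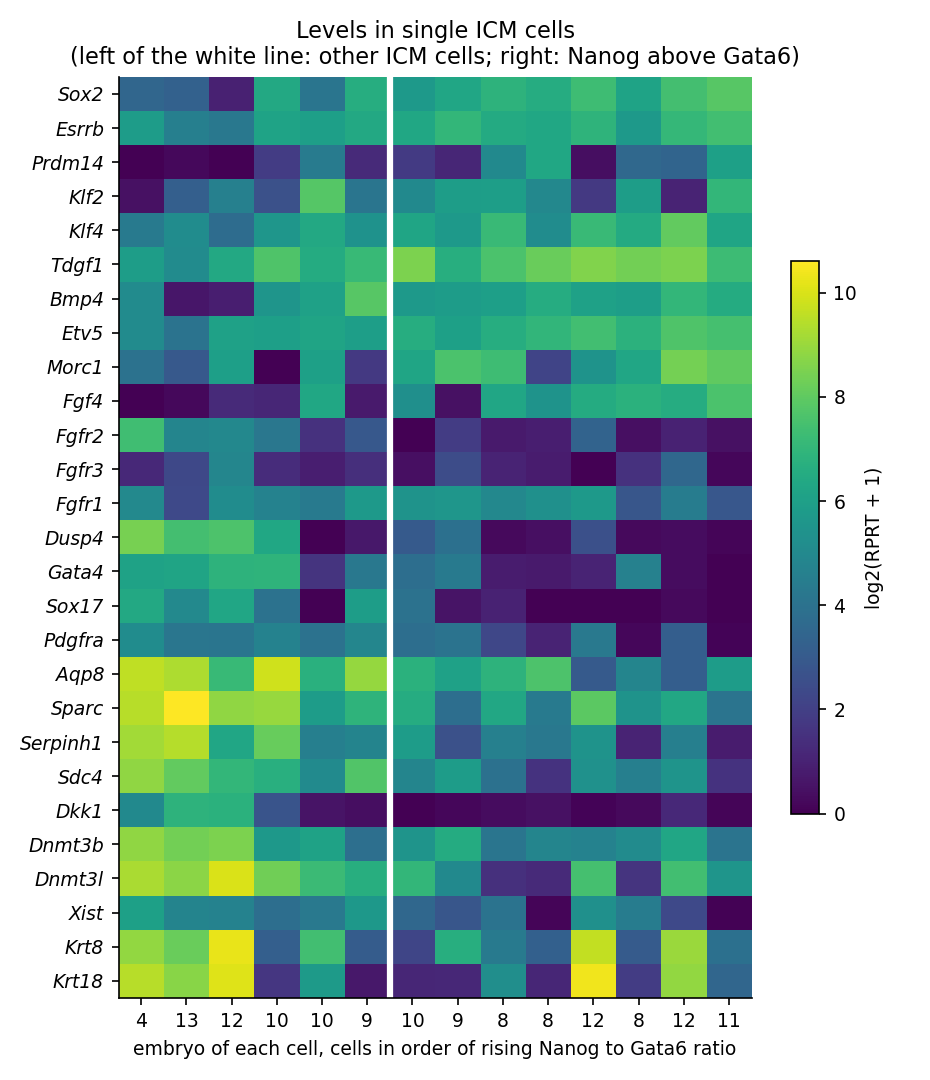
Levels of 27 genes (log2 of RPRT + 1, colour) in the 14 ICM cells, one column per cell with the number of its embryo, in order of rising Nanog to Gata6 ratio. The 4 leftmost cells share high Fgfr2, Gata4, Dusp4 and Serpinh1, the 2 cells on either side of the white line hold mixed levels, and Krt8 and Krt18 are high in embryos 4, 12 and 13 on both sides.

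The question put to all other genes was which of them differed between the sides beyond the spread among embryos. Counts were summed per embryo and side, which gave 5 sums a side, and 8709 genes other than Nanog and Gata6 were tested. Most sums held 1 cell, so the spread among embryos here includes the spread among single cells. None passed an adjusted p of 0.05 (0 of 8709, 0%) in edgeR. At an unadjusted p under 0.05, 208 genes were higher on the Nanog side (2.39%) and 223 were lower (2.56%). The 5 sums of the Nanog side lay wholly above the other 5 for 64 genes (0.735%) and wholly below them for 63 genes (0.723%). With embryo as a fixed block, which uses embryos 9, 10 and 12 alone, 0 genes passed, and 122 were higher and 137 lower on the Nanog side at an unadjusted p under 0.05. DESeq2 called 82 genes on the same sums, 32 higher and 50 lower on the Nanog side. On simulated counts of this size the share of altered genes that edgeR recovered was 0% at a 2-fold change, 18% at 4-fold, 60% at 16-fold and 76% at 64-fold. Genes named below are those of lowest p or members of lists, and unless stated otherwise none passed the adjusted p in edgeR. With DESeq2 on the same sums 29 of 63 named genes passed, among them Fgf4, Fgfr2, Aqp8, Gata4 and Dusp4. Whether these genes pass thus depends on the test.

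Among the 10 genes of lowest p that were higher on the Nanog side were Fgf4, Aurkc and Morc1, and none of the 10 passed the adjusted p in edgeR. Aurkc, a kinase of meiosis, was at 143, 44.8, 37.6, 93.9 and 86.1 CPM (counts scaled to the library total) in the sums of embryos 8, 9, 10, 11 and 12 on the Nanog side. The Gata6 side had 4.88, 1.23, 1.62, 0.926 and 11.7 CPM in embryos 4, 9, 10, 12 and 13. The sums did not overlap, and the log2 fold change was 4.32 ± 0.92 (SE, adjusted p = 0.239). Morc1, needed to silence transposons in male germ cells, was at 189 ± 140 CPM on the Nanog side and 17.5 ± 21.3 CPM on the Gata6 side (SD, n = 5 each), again without overlap. Its log2 fold change was 3.43 ± 0.79 (SE, adjusted p = 0.268). Fgf4 had 157 ± 147 CPM on the Nanog side and 2.60 ± 4.90 CPM on the Gata6 side, a log2 fold change of 5.89 ± 1.50 (SE, adjusted p = 0.394), and its sums overlapped through embryo 9. With the line cells left out, Fgf4 passed (log2 fold change 8.79, adjusted p = 0.0164). The line cells are defined by the values of the choice, so this pass adds no separate support.

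Rcc2, a regulator of chromosome segregation, was at 606 ± 318 CPM against 188 ± 47.7 CPM (SD), and Smarcd2, a subunit of the BAF chromatin remodelling complex, at 215 ± 100.4 CPM against 42.0 ± 35.7 CPM. Ei24, a protein of the endoplasmic reticulum, was at 261 ± 170 CPM against 47.2 ± 38.2 CPM. For these 3 genes the Nanog side lay above the Gata6 side in all 5 sums and within each of embryos 9, 10 and 12. Of the genes higher on the Nanog side, 3110043O21Rik had the lowest p (log2 fold change 6.73 ± 1.36 SE, adjusted p = 0.196 in edgeR). It was at 10.9 to 61.0 CPM in the 5 sums of the Nanog side and 0.103 to 0.308 CPM in the others. By cell it was above 1 RPRT in 6 of 8 cells of the Nanog side and in 0 of 6 cells of the Gata6 side. Gm13102 and Pramel4 showed almost the same levels in every sum (191 ± 154 and 190 ± 155 CPM against 27.8 ± 11.5 and 30.6 ± 12.5 CPM). They belong to the PRAME-like family of close copies, so reads may be shared between them. Trim43a, a member of a family of ubiquitin ligases, was at 325 ± 141 CPM against 89.3 ± 61.2 CPM and overlapped through embryo 12 and embryo 9.

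The 10 genes of lowest p that were lower on the Nanog side included Aqp8 and Sparc, the 2 among them that are on the PrE list. Aqp8, a water channel, was at 145, 96.9, 161, 62.5 and 9.17 CPM in the sums of embryos 8, 9, 10, 11 and 12 on the Nanog side. The Gata6 side had 1192, 712, 971, 221 and 1196 CPM in embryos 4, 9, 10, 12 and 13. The sums did not overlap, and within each of the 3 shared embryos the Nanog side was lower. The log2 fold change was -3.18 ± 0.63 (SE, adjusted p = 0.196), and without embryo 12 Aqp8 passed (adjusted p = 0.0377). B3gnt7, an enzyme that extends sugar chains, had 18.4 ± 9.75 CPM on the Nanog side and 144 ± 43.2 CPM on the Gata6 side (SD, n = 5 each). Its log2 fold change was -2.96 ± 0.55 (SE, adjusted p = 0.196). In single cells B3gnt7 was at 2.30 to 29.3 RPRT on the Nanog side and 35.4 to 78.5 RPRT on the Gata6 side, so that here the line cells also fell with their own side.

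Tnfaip8, a cytosolic protein induced by tumour necrosis factor, separated the single cells as well, at 0.994 RPRT or less on the Nanog side and 1.33 RPRT or more on the Gata6 side. Its sums were at 0.57 ± 0.575 CPM and 37.6 ± 22.8 CPM (SD, n = 5 each). Snx2, a sorting nexin of endosomes, was at 502 ± 207 CPM against 1699 ± 737 CPM, and its sums met in embryo 9, where the Nanog side had 800 and the Gata6 side 768 CPM. Hpcal1, a calcium sensor, was at 3.22 ± 4.0 CPM against 73.9 ± 63.8 CPM. For the least abundant genes of this group a fold change rests on a few reads, so levels alone are given. Dkk1, a secreted inhibitor of WNT signalling, was at 0 to 1.32 CPM in the Nanog sums. In the Gata6 sums it was at 74.7, 0.514, 8.86, 258 and 326 CPM in embryos 4, 9, 10, 12 and 13. The 2 line cells of the Gata6 side had 0.464 RPRT or less of it, as low as the Nanog side. Adora1, an adenosine receptor, was at 0 to 0.522 CPM on the Nanog side and 2.26 to 173 CPM on the Gata6 side. Runx1, a transcription factor best known from blood, was at 0 to 0.113 CPM and 2.47 to 41.2 CPM.

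Lists of genes of known role were then read against the 8709 genes, whose median log2 fold change was -0.01. Of all 8709, 2.39% were higher and 2.56% lower on the Nanog side at an unadjusted p under 0.05. Sums lay apart for 0.735% and 0.723%. These shares are the measure for each list below, and a list with 1 such gene was not read as a result for that list. These lists were written with earlier results of the same cells known. Of the 35 genes on the epiblast and pluripotency list, 28 were tested, 11 had an unadjusted p under 0.05 with higher counts on the Nanog side and 1 with lower counts, and the median log2 fold change was 0.88. With embryo as a block 3 were higher and 0 lower, with a median of 0.58, against 122 higher and 137 lower of all 8790 genes tested in that fit. Klf4, a pluripotency factor, was at 233 ± 127 CPM on the Nanog side and 77 ± 33.2 CPM on the Gata6 side (log2 fold change 1.60 ± 0.47 SE, adjusted p = 0.537), and its sums did not overlap. Tdgf1, a co-receptor of Nodal, was at 458 ± 210 CPM against 182 ± 92.5 CPM. Etv5, an ETS factor that ERK signalling induces and that naive pluripotent cells express, was at 399 ± 178 CPM against 140 ± 63 CPM. Both overlapped between the sides through embryo 9. Prdm14, a repressor that safeguards pluripotency, and Klf2 had log2 fold changes of 4.36 and 2.31, which were -0.68 and -0.61 with embryo as a block. Bmp4 had a log2 fold change of 0.22 ± 1.06 (SE) and overlapped widely between the sides.

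On the PrE list of 33 genes, 24 were tested, 15 had an unadjusted p under 0.05 with lower counts on the Nanog side and 0 with higher counts, and the median log2 fold change was -1.74. With embryo as a block 9 were lower and 0 higher, with a median of -1.60. The sums of 4 of them did not overlap, all lower on the Nanog side, as did 0.723% of all genes. Sparc, a protein of the extracellular matrix, was at 151 ± 142 CPM on the Nanog side and 1836 ± 1811 CPM on the Gata6 side (log2 fold change -3.61 ± 0.78 SE, adjusted p = 0.239). Serpinh1, the chaperone of collagen, was at 31.7 ± 40.5 CPM against 789 ± 848 CPM, and Ctsl, a lysosomal protease, at 705 ± 266 CPM against 2370 ± 1506 CPM. In all 3 genes the Nanog side was lower within each of embryos 9, 10 and 12. Gata4 was at 13.4 ± 13.4 CPM against 207 ± 109 CPM, Fgfr2 at 2.42 ± 3.08 CPM against 71.8 ± 56.9 CPM, and neither overlapped between sums. Sox17 was at 2.89 ± 6.17 CPM against 57.9 ± 32.8 CPM and overlapped through embryo 10, in which the Nanog side had 13.9 and the Gata6 side 10.9 CPM.

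The FGF pathway was followed from ligand to response. Of 16 ligands and heparan sulfate genes, 9 were tested, 1 had an unadjusted p under 0.05 with higher and 1 with lower counts on the Nanog side. The first was Fgf4 and the second Sdc4, a heparan sulfate proteoglycan of the cell surface, at 61.7 ± 49.0 CPM against 606 ± 397 CPM without overlap (log2 fold change -3.30 ± 0.71 SE, adjusted p = 0.239). Fgf10, the only other ligand tested, was at 57.2 ± 69.3 CPM against 76.7 ± 40.8 CPM. Of 3 receptors tested, Fgfr2 had a log2 fold change of -4.88 ± 1.28 (SE, adjusted p = 0.404). Fgfr3 was at 1.20 ± 1.01 CPM against 8.66 ± 14.8 CPM, and most of the latter came from embryo 12. Fgfr1 was at 96.6 ± 49.5 CPM on the Nanog side and 107 ± 58.9 CPM on the Gata6 side, a log2 fold change of -0.15 ± 0.60 (SE). By cell Fgfr1 was above 1 RPRT in all 14 cells, and Fgfr2 in 3 of 8 cells of the Nanog side and 6 of 6 of the Gata6 side. None of the 18 genes tested that relay the signal from RAS to ERK had an unadjusted p under 0.05 (median log2 fold change 0.19).

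Of 16 tested genes of ERK response and feedback, 1 was higher and 2 were lower on the Nanog side at an unadjusted p under 0.05. The higher one was Etv5. Dusp4, a phosphatase that dampens ERK, was at 341, 170, 199, 79.3, 0 and 0.609 RPRT on the Gata6 side in order of rising ratio. On the Nanog side it was at 0.0995 RPRT in the lowest, 0.318 in the median and 14.3 in the highest cell. Its 2 lowest Gata6-side cells were line cells, and the 2 highest Nanog-side cells were the line cells of embryos 9 and 10. Its log2 fold change was -5.61 ± 1.44 (SE, adjusted p = 0.394), and without the line cells it passed (adjusted p = 0.0148), as 1 of 2 genes together with Fgf4. Since the line cells are defined by the values of the choice, this pass adds no separate support either. Phlda1, an ERK target that restrains signalling, was at 3.71 ± 5.88 CPM against 36 ± 25.4 CPM.

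Among the other signalling lists, 9 genes of the LIF and STAT3 pathway were tested, 2 were higher on the Nanog side at an unadjusted p under 0.05 and 0 lower. They were Klf4 and Tfcp2l1, a naive pluripotency factor at 542 ± 141 CPM against 298 ± 78.8 CPM without overlap. The other 7 had negative log2 fold changes, and the median of the 9 was -0.28. With embryo as a block 1 was higher and 0 lower, so these 9 genes are not read as a rise of the pathway. In the BMP, Nodal and Activin pathway 1 of 14 tested genes was higher (Tdgf1) and 0 lower. In the WNT pathway 1 of 13 was lower (Dkk1) and 0 higher. Over all genes 2.39% were higher and 2.56% lower, so 1 gene in lists of this size is no result for a pathway.

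Genes that act on chromatin were read next. Of 12 tested genes of DNA methylation and demethylation, 2 were higher and 3 lower on the Nanog side at an unadjusted p under 0.05. The 3 lower were the de novo methylation genes. Dnmt3b was at 122 ± 82.8 CPM on the Nanog side and 976 ± 808 CPM on the Gata6 side (log2 fold change -3.00 ± 0.80 SE, adjusted p = 0.458). Dnmt3l, the catalytically inactive partner, was at 126 ± 113 CPM against 1025 ± 658 CPM and was lower on the Nanog side within each of the 3 shared embryos. Dnmt3a was at 17.2 ± 19.8 CPM against 110 ± 95.0 CPM. Dnmt3b on the Gata6 side was at 1704, 1511 and 1471 CPM in embryos 4, 12 and 13 but at 33.9 and 162 CPM in embryos 9 and 10. Without embryos 4, 12 and 13 its log2 fold change was 0.25. Tet1, which oxidises methylcytosine, was higher on the Nanog side, at 125 ± 44.3 CPM against 38.4 ± 38.6 CPM.

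Of 17 tested glycolysis genes, 4 were lower at an unadjusted p under 0.05 and 0 higher (median log2 fold change -0.73). With embryo as a fixed block 0 were lower (median -0.79), and without embryos 4, 12 and 13, which were rich in keratin RNA, 0 were lower (median -0.34). Tpi1 was at 101 ± 36.4 CPM against 265 ± 120 CPM and Pfkl at 10.3 ± 11.8 CPM against 124 ± 77.4 CPM, both without overlap. The other 2 were Gapdh and Pgk1, both of which have processed copies elsewhere in the genome that can share reads. Of 15 tested adhesion and sorting genes, 2 were lower and 0 higher. Cdh1, the E-cadherin of epithelia, was at 220 ± 108 CPM against 528 ± 271 CPM, and Vim, an intermediate filament, was above 1 RPRT in 2 of 8 cells of the Nanog side and 4 of 6 of the Gata6 side. On the stress and immediate early list 1 of 12 tested genes was lower (Sesn2) and 0 higher. None of the 22 tested genes of the cell cycle, 14 of apoptosis or 15 of cholesterol synthesis had an unadjusted p under 0.05 (median log2 fold changes 0.18, 0.18 and -0.01).

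Immunosurgery destroys TE cells, but its use is not stated for the ICM cells of the earlier study. TE markers were therefore read in all ICM cells. Of 26 TE markers 16 were tested, 1 was higher and 1 lower on the Nanog side at an unadjusted p under 0.05. By fold change alone 2 were higher and 14 lower on the Nanog side, with a median log2 fold change of -1.04. With embryo as a block the median was -0.35. The higher was Tfap2c and the lower Fabp3. The summed RPRT of the 26 markers was 253 to 3949 on the Nanog side (median 357) and 295 to 4215 on the Gata6 side (median 1430). In the TE cells it was 16115 to 21845. Krt8 and Krt18, keratins of the TE, were high in every ICM cell of embryos 4, 12 and 13, at 289 to 1235 and 416 to 1321 RPRT. These embryos gave 3 of the 5 sums of the Gata6 side and 1 of the 5 of the Nanog side, so that keratin RNA moved with the side. In the cells of embryos 8, 9, 10 and 11, Krt8 was at 3.59 to 167 RPRT and Krt18 at 0.608 to 54.5 RPRT. Cdx2, the defining TE factor, was above 1 RPRT in 2 cells of each side. Without these embryos, which leaves 4 sums on the Nanog side and 2 on the Gata6 side, 0 of 10101 genes passed, as with them, and 179 were higher and 134 lower on the Nanog side at an unadjusted p under 0.05. The epiblast list then had 2 higher and 0 lower genes of 28 tested (median log2 fold change 0.45), and the PrE list 0 higher and 6 lower of 24 (median -1.31). The log2 fold change was then 4.76 for Fgf4, 5.80 for Aurkc, -3.78 for Fgfr2 and -2.86 for Aqp8, while that of Dnmt3b, Bmp4, Fgfr3, Krt8 and Krt18 turned direction.

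Whether the ICM sides leaned towards the lineages of E4.0 was read in cells that had no part in the choice. Of the 8599 genes with both fold changes, 58.9% had the same sign between the ICM sides and between E4.0 Epi and PrE. Among genes with an unadjusted p under 0.05 between the sides the share was 80.5% of 426, with 74.6% of the 205 that were higher on the Nanog side and 86% of the 221 that were lower. No test was made on these shares, since genes are not independent. The epiblast list had a median log2 fold change of 1.70 and the PrE list of -4.45 at E4.0, both wider than within the ICM. The study assigned the E4.0 classes by known pluripotency and differentiation genes, Prdm14 and Gata4 among them. The values of these 2 lists at E4.0 are therefore partly set by that assignment. Aqp8 was at 1.50 CPM in the Epi and 664 CPM in the PrE on average over embryos. Fgf4 was at 161 and 0.623 CPM, and Morc1 at 406 and 58.5 CPM.

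Gm13102 and Pramel4, higher on the Nanog side, were lower in the Epi (0.729 and 1.24 CPM) than in the PrE (17.4 and 18.4 CPM) at E4.0. Their PrE mean rests on embryo 15 (47.5 and 51.0 CPM), since the other PrE values were 3.96 CPM or less. 3110043O21Rik (2.23 CPM in the Epi and 4.31 CPM in the PrE) and Kdm6a (24.4 and 31.5 CPM) also turned direction, by a smaller fold change. Trim43a was higher in the Epi, as on the Nanog side, but at a low level (11.4 and 3.97 CPM). B3gnt7, Dnmt3l and Klf4 kept their direction with a smaller fold change. B3gnt7, whose ICM sums did not overlap, was at 54.4 CPM in the Epi and 66.3 CPM in the PrE. Dnmt3l was at 731 and 1221 CPM, and Klf4 at 219 and 175 CPM. Cdh1, lower on the Nanog side, was at 249 CPM in the Epi and 242 CPM in the PrE.

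**Figure D3:**
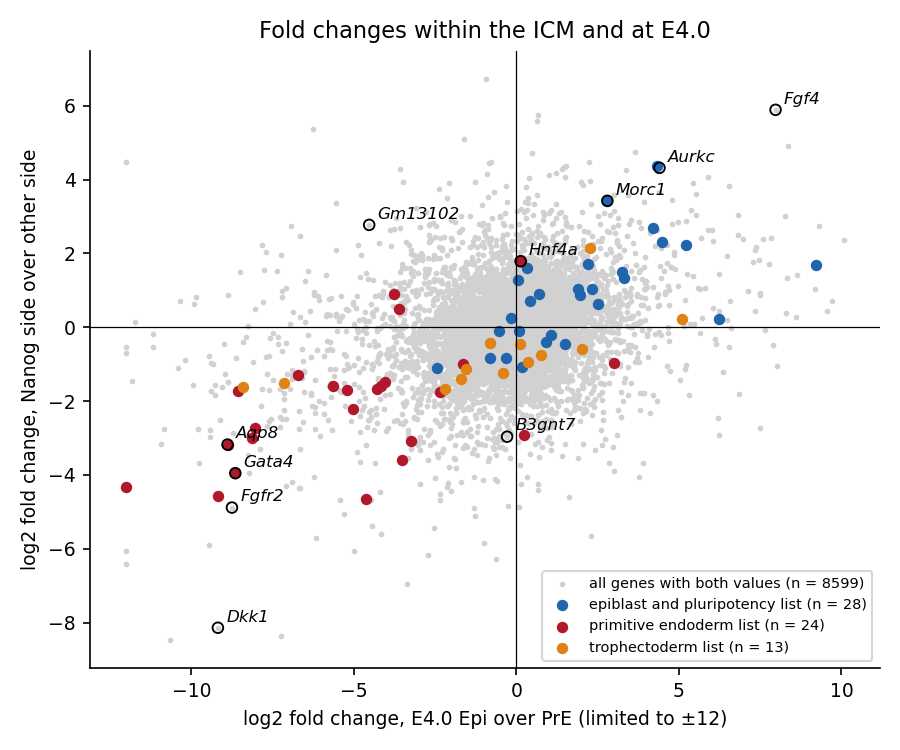
Log2 fold change between the ICM sides (Nanog side over Gata6 side, y axis) against that between E4.0 Epi and PrE (x axis, limited to ±12) for 8599 genes, each point a gene, with 3 lists in colour and black rings on named genes. Most epiblast genes lie at the upper right and most PrE genes at the lower left, while Gm13102 lies at the upper left and B3gnt7 near the vertical axis.

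Cells were also placed by their whole profile. Over the 1000 genes most variable at E4.0, without Nanog and Gata6, each ICM cell was correlated across genes with the mean Epi and the mean PrE profile, and genes are not independent replicates. On the Nanog side r with the Epi was 0.310 to 0.443 and r with the PrE was 0.142 to 0.319. On the Gata6 side r with the Epi was 0.0991 to 0.289 and r with the PrE was 0.240 to 0.651. The 4 Gata6-side cells away from the line had r with the PrE of 0.514 or more, and no other ICM cell exceeded 0.341. The difference of both values (Epi minus PrE) was -0.064 to 0.049 in the 4 line cells. At 0.049 the line cell of embryo 10 on the Gata6 side stood level with its counterpart on the Nanog side at 0.048. Such a value was not limited to line cells, since a Nanog-side cell of embryo 12 with a ratio of 19.5 had 0.036. Over the 14 cells, which share 7 embryos, the Spearman correlation of this difference with the Nanog to Gata6 ratio was 0.899. The correlation of the same difference with the mean of the PrE list was -0.886 and with Fgf4 0.881, all as descriptions. Only Nanog and Gata6 were left out of the 1000 genes, so Fgf4 and genes of the PrE list could be among them. The correlations with Fgf4 and with the PrE list may therefore be partly built in, and they add no separate support.

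**Figure D4:**
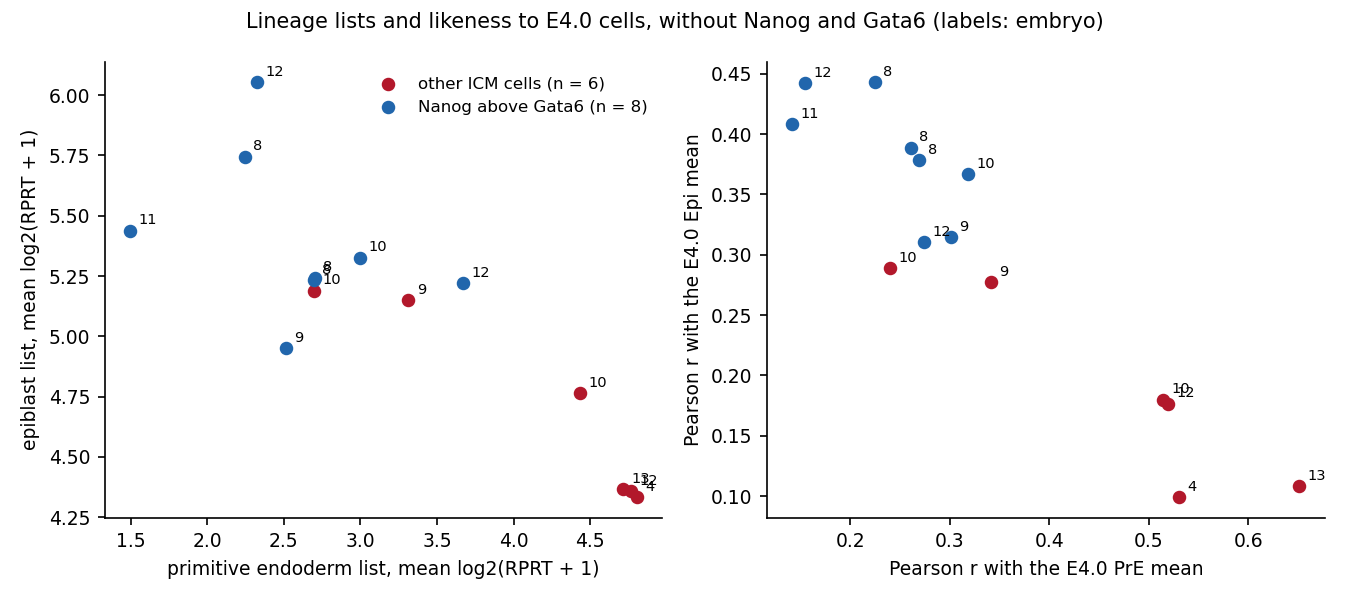
Left, the mean log2(RPRT + 1) of the epiblast list against that of the PrE list in each ICM cell; right, Pearson r of each cell with the mean E4.0 Epi profile against r with the mean PrE profile. In both panels 4 red cells of embryos 4, 10, 12 and 13 stand apart at high PrE values, and the red cells of embryos 9 and 10 next to the line lie among or beside the blue cells.

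The shallow line cell of embryo 10 on the Gata6 side, with the lowest total count, was the least like its side. It had Fgf4 at 77.8, Klf2 at 223 and Prdm14 at 20.2 RPRT, each within or above the range of the Nanog side, and Sox17 at 0, Gata4 at 2.01 and Dusp4 at 0 RPRT. It nevertheless kept B3gnt7 at 57.7 and Tnfaip8 at 16.8 RPRT, as in the rest of the Gata6 side. The part of its depth in these values was not tested.

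The allelic readout asked whether the paternal X was more active on the Nanog side. A gene with more than 4 RPRT was called biallelic in a cell where over 0.20 of its allelic reads were paternal. No upper limit was set, so a gene read from the paternal allele alone was also counted. Genes that the study classed as escaping X inactivation were counted too. Biallelic X-linked genes made up 24.0% in the lowest, 38.0% in the median and 60% in the highest cell of the Nanog side, of 104 to 139 genes per cell. On the Gata6 side they made up 22.1%, 35.9% and 41.4%, of 68 to 133 genes per cell. The read numbers behind single ratios are unknown, so no interval is given for a gene. Averaged per embryo, the percentages were 40.0 ± 10.3 on the Nanog side and 33.8 ± 3.45 on the Gata6 side (SD, n = 5 each). The difference of 6.18 percentage points was within the spread (exact permutation test over 252 assignments, two-sided p = 0.246, adjusted over 3 comparisons p = 0.5; smallest p possible 0.00794). Within embryos the Nanog side was higher by 2.20 points in embryo 9 and 5.38 in embryo 12, and in embryo 10 the difference was -7.36 points. The mean of these 3 differences, with embryo as a block, was 0.0738 points (exact sign permutation p = 1, smallest possible 0.25). Without embryo 10 the difference was 9.57 points (exact permutation p = 0.0286, the smallest possible with 4 embryos a side), and without embryo 11 it was 2.93 points (exact permutation p = 0.492). With only ratios between 0.20 and 0.85 counted as biallelic, it was 3.90 points over all embryos (exact permutation p = 0.254). It was 8.96 points without the escaping genes (exact permutation p = 0.0873). With only the X-linked genes that the study followed it was 3.75 points (exact permutation p = 0.516). Without the line cells, which the values of the choice define, it was 10.1 points (exact permutation p = 0.0571).

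The 3 highest percentages, 60% in embryo 12, 53.0% in embryo 11 and 51.1% in embryo 8, were all on the Nanog side and away from the line. The 2 cells of the Nanog side in embryo 12 stood at 60% and 24.0%, so that cells of the same embryo and side lay near opposite ends of the ICM. At E4.0 the cells were at 44.1% to 71.1% in the Epi and 20.5% to 45.9% in the PrE, and 5 of the 8 cells on the Nanog side lay below the lowest Epi cell. Autosomal genes measured in the same way were biallelic at 74% ± 4.25 on the Nanog side and 76.6% ± 3.82 on the Gata6 side (SD, n = 5 each; exact permutation test, two-sided p = 0.333, adjusted over 3 comparisons p = 0.5). With embryo as a block this difference turned from -2.58 to 0.247 points. With only ratios between 0.20 and 0.85 counted as biallelic, the autosomal difference was -4.51 points (exact permutation p = 0.405).

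**Figure D5:**
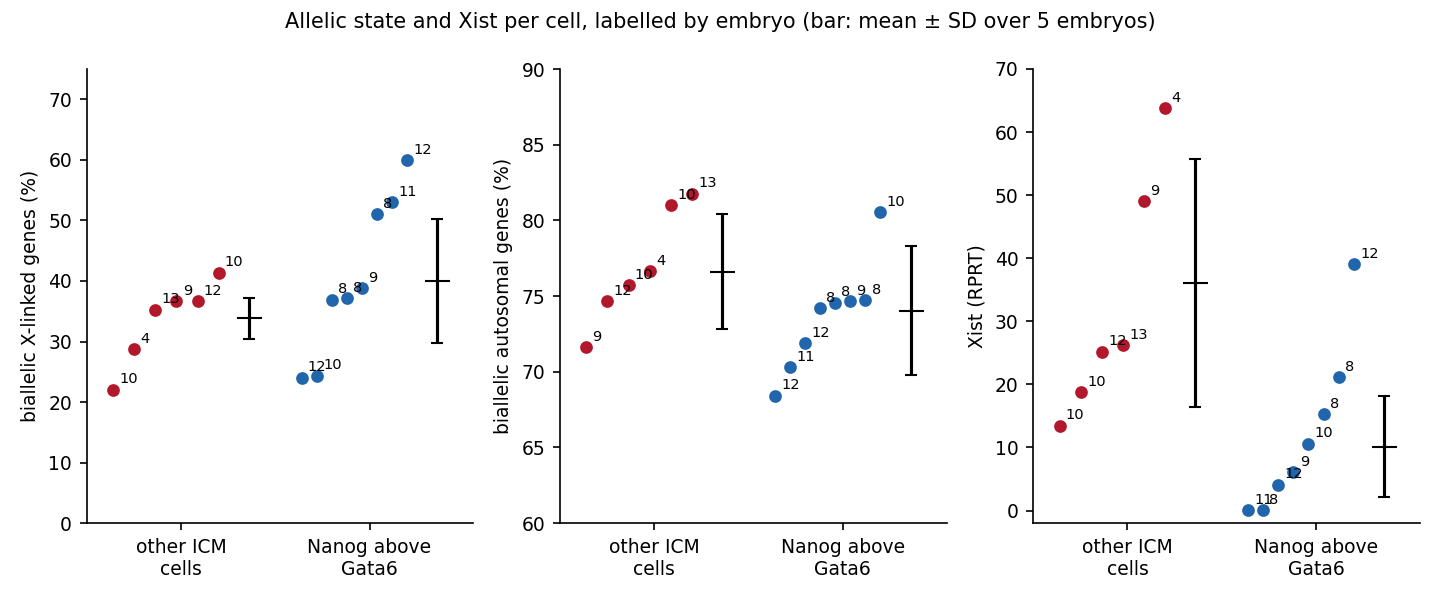
Percentage of biallelic X-linked genes (left), of biallelic autosomal genes (middle, axis from 60%) and Xist in RPRT (right) in each ICM cell, with the number of its embryo, and mean ± SD over the 5 embryos of each side. The 3 cells above 50% biallelic X-linked genes are on the Nanog side, and the 2 cells with Xist near 0 are the same side's cells of embryos 8 and 11.

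Xist lies at chrX:103460366-103483254 (GRCm38) and was amplified with a primer of its own. It was at 0.0339, 8.36 and 39.1 RPRT in the lowest, median and highest cell of the Nanog side and at 13.4, 25.7 and 63.8 RPRT on the Gata6 side. In counts it was at 171 ± 132 CPM against 660 ± 376 CPM (SD, n = 5 each), a log2 fold change of -1.94 ± 0.88 (SE, adjusted p = 0.974). Within embryos 9, 10 and 12 the mean Xist of the Nanog side minus that of the Gata6 side was -43.0, -5.47 and -3.60 RPRT. Counting by strand is not given in the sources used here, so reads of the antisense gene Tsix could not be told apart. The 2 cells with Xist at 0.119 RPRT or less, from embryos 8 and 11, had 51.1% and 53.0% of X-linked genes biallelic, and E4.0 Epi cells had 0 to 0.194 RPRT. The cell with 60% had 4.11 RPRT.

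Of 22 tested genes of X inactivation, 2 were higher and 2 lower on the Nanog side at an unadjusted p under 0.05. Kdm6a, an X-linked H3K27 demethylase, was at 44.3, 74.3, 59.9, 64.9 and 52.4 CPM in embryos 8, 9, 10, 11 and 12 on the Nanog side. In the Gata6 sums it was at 7.18, 15.2, 17.5, 2.37 and 0.815 CPM in embryos 4, 9, 10, 12 and 13, without overlap (log2 fold change 2.78 ± 0.89 SE, adjusted p = 0.628). Ezh2, the methyltransferase of H3K27, was at 301 ± 137 CPM against 156 ± 76.3 CPM. Rlim, an X-linked ubiquitin ligase that activates Xist, was lower on the Nanog side, at 119 ± 67 CPM against 269 ± 67.3 CPM, as was Xist.

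By gene, 113 X-linked genes had a ratio in at least 3 cells on each side. The mean paternal fraction was higher on the Nanog side for 67 of them and lower for 43, with a median difference of 0.0154. The widest difference was in Trappc2 (chrX:166440574-166453140, GRCm38), a subunit of a vesicle tethering complex, at 0.194 ± 0.191 on the Gata6 side and 0.958 ± 0.0722 on the Nanog side (SD over 3 cells each). Pola1, a subunit of DNA polymerase alpha, was at 0.683 against 0.233, Cul4b, a ubiquitin ligase scaffold, at 0.533 against 0.171, and Pgrmc1 at 0.333 against 0, the last through 1 of 3 cells. In the other direction Ebp (chrX:8185329-8193512), an enzyme of cholesterol synthesis, was at 0.171 ± 0.151 over 8 cells of the Nanog side and 0.616 ± 0.236 over 5 cells of the Gata6 side. 1810030O07Rik was at 0 against 0.261, Ctps2 at 0.177 against 0.437 and Txlng at 0.450 against 0.689. These 8 genes were picked for their differences, which therefore carry no test.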

How the data were processed

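Single-cell libraries were amplified from the 3′ end of poly(A) RNA with an added primer for Xist. Counts per gene were deposited by the authors, aligned to mm10 with TopHat2 2.1.0, counted with HTSeq 0.6.1 and not normalized (24499 genes). RPRT is a signal, which the authors scaled to retrotranscribed length and depth (17280 genes). Allelic ratios were deposited by the authors as a fraction, paternal over paternal plus maternal reads (11909 genes, 357 X-linked). Each library is 1 cell, and class and embryo came from the study's sample sheet, matched by title.

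Raw counts of the 14 ICM cells were summed per embryo and side (10 sums, 7624408 to 35783009 counts) and tested with edgeR 4.0.16 in R 4.3.3 (filterByExpr, TMM, quasi-likelihood F test, Benjamini-Hochberg over all 8711 genes, adjusted p 0.05); Nanog and Gata6 stayed in the fit and out of all counts. The p-values measure the spread between sums. Most sums held 1 cell, so spread between embryos and spread between cells could not be told apart. The sums are partly paired since embryos 9, 10 and 12 gave both sides. Deviations of their sums correlated at 0.112, 0.0883 and 0.0861, and pairing by embryo comes from the sample sheet. Fold changes are Nanog side over Gata6 side. Single values were compared by exact two-sided permutation (Python 3.11.15, scipy 1.17.1). The E4.0 fold changes come from 5 sums and carry no test. The pipeline was tested on simulated data. Reference spans are from GENCODE M21.

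The cells and the 18 gene lists were chosen with earlier results of these data known. Named genes were the given markers, the 10 of lowest p in each direction, up to 4 of lowest p per list, tested FGF ligands and receptors, and the 4 X-linked genes of widest ratio difference in each direction; Krt8, Krt18, and lineage markers outside these were named as marker checks. Alternatives changed the test (DESeq2 1.42.0, limma 3.58.1), block, scaling, filter, unit, pseudocount, thresholds of the ratio and RPRT, and left out each embryo, the earlier study's cells, the shallowest cell or the line cells. Leaving out embryos 4, 12 and 13 was chosen after seeing the data. Sequences are not shown, since the members are cells. Values of the study's own comparisons were not used.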

Additional observations from a re-analysis of the deposited data

Results flagged for a closer look

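In 12 of the 132 sets of 5 sums examined, 1 sum stood far from the other 4, judged by its gap to the nearest over the range of the 5. Chance flags about 1 in 20 such sets. Values are log2(CPM + 1).

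On the Nanog side, Fgf4 was lowest in embryo 9 at 0.73, whose cell lay next to the line. Sox17 was highest in embryo 10 at 3.90, also a line cell, as was Vim at 4.46. Rcc2 was highest in embryo 11 at 10.19, in the cell of highest Nanog to Gata6 ratio, and Xist was lowest in the same cell at 0.42. Adora1 was highest in embryo 8 at 0.61, a level close to 0. Gata3, a TE factor, was highest in embryo 12 at 4.48, which was also rich in keratin RNA.

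On the Gata6 side, embryo 9 was lowest for Gata4 at 5.16, Dusp4 at 0.78 and Pgk1 at 5.98, and its cell lay next to the line. Fgf10 was lowest in embryo 12 at 3.57 and Fgfr1 in embryo 13 at 4.03. The causes were not tested.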

How the results depend on the processing

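The number of genes passing was 0 in the main test and 0 in 20 of 23 alternatives; it was 82 with DESeq2 (1077 genes had no adjusted p), 2 without the line cells, and 0 to 1 when each embryo was left out (Aqp8, without embryo 12). The difference in biallelic X-linked genes was positive in every alternative run and ranged from 2.93 to 9.57 points when each embryo was left out; 0.0286 was its exact p without embryo 10. The autosomal difference turned positive with embryo as a block (0.247) and without embryos 4, 12 and 13 (0.0166), and the difference in genes detected turned positive with the block (180). The block changed no other call. Of 1436 fold changes of 63 named genes under alternatives, 17 turned direction and 32 passed an adjusted p of 0.05, 29 of them with DESeq2. With the block Prdm14 was at -0.68, Klf2 at -0.61 and Fgfr1 at 0.034; without embryos 4, 12 and 13 Bmp4 was at -0.95, Krt8 at 0.47, Krt18 at 0.014, Fgfr3 at 1.51 and Dnmt3b at 0.25. Without the cells of the earlier study Bmp4 was at -0.33, Krt8 at 0.13 and Fgfr1 at 0.27. When each embryo was left out, Bmp4 ranged from -0.13 to 1.89 and Fgfr1 from -0.43 to 0.10, and means per cell gave Fgfr1 0.030 (CPM), 0.11 (RPRT + 1) and 0.12 (RPRT + 0.1). The causes were not tested. With 5 sums a side, changes of 2-fold were not detectable.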
